A study of Mus musculus with 8 samples.

Results

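Genes of the DNA damage and stress response were followed in astroglial RNA of mouse cerebral cortex: the Gadd45 family (Gadd45a, Gadd45b, Gadd45g), the stress gene Nupr1, and Trp53 with genes known to respond to or act on p53 (Trp53inp1, Mdm2, Ccng1, Sesn1, Bbc3). They were chosen because Nupr1 and Gadd45a differed between FGF2 with SB202190 and FGF2 alone, so for those genes that difference is a description and was not tested. Probe sets were taken by the gene symbol in the array's annotation, which named 9 of the 10 genes listed, out of 18194 genes with a probe set, by 20 probe sets; Trp53 is not analysed here. All 9 genes passed the filter on low signal and stood among the 13173 genes tested, as did 18 of the 20 probe sets; the others, of Mdm2 and Sesn1, stayed faint, at 2.23 to 16.2 and 5.48 to 15.5 on the 8 arrays.

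The study compared the astroglial response to FGF2 (fibroblast growth factor 2) in 4 groups of 2 samples, each on its own array: FGF2 with SB202190, an inhibitor of the kinase p38; FGF2 with U0126, an inhibitor of the kinase MEK, which activates ERK; FGF2 alone; and vehicle. No mutation or other agent is named for any group. The dose, the time, the age of the mice, whether the RNA came from culture or tissue, and whether replicates came from separate animals are not stated in the labels. The label of FGF2 with SB202190 replicate 2 names another type of handling than those of the other samples, and it was kept in its group.

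Gadd45 proteins are small, have no known enzyme activity, and bind PCNA, the cyclin B and CDK1 complex and the kinase MEKK4 (Map3k4), through which they can activate p38 and JNK. Nupr1 is a small chromatin-associated protein whose gene is a known target of ATF4, the transcription factor of the integrated stress response. Nupr1 and the Gadd45 genes are all known as genes that cells switch on quickly under stress, and Gadd45a, Mdm2, Ccng1, Sesn1, Bbc3 and Trp53inp1 are textbook targets of p53.

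The promoters of the 4 genes that moved most with FGF2 or SB202190 are shown as RefSeq sequence of the mouse build GRCm38.p6, from 250 bases before to 50 bases after the start site, 5′ to 3′ on the gene's strand. Capitals mark octamers (ATGCAAAT or ATTTGCAT), CCAAT boxes (CCAAT or ATTGG), elements of the C/EBP and ATF kind (TGATGNAA or TTNCATCA) and TATA boxes (TATAAA or TTTATA), searched on both strands.
Nupr1, chr7:126625421-126625720, minus strand: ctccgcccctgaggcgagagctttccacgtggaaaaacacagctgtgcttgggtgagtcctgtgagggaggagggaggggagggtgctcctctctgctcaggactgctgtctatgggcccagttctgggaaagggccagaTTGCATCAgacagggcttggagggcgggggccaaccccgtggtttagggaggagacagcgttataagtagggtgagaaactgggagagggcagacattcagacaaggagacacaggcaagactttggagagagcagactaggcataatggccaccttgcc
Gadd45a, chr6:67037358-67037657, minus strand: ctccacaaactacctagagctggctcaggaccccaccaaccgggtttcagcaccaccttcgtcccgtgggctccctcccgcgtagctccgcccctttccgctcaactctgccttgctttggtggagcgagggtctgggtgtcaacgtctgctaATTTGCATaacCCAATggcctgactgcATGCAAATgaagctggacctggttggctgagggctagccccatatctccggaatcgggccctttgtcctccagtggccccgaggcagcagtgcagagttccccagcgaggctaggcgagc
Gadd45b, chr10:80929841-80930140, plus strand: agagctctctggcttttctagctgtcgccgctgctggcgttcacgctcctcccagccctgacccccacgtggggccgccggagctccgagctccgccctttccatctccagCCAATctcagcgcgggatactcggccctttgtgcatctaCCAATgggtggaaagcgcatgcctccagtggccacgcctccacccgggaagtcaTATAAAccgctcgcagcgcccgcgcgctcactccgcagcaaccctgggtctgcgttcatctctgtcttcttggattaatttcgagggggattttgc
Gadd45g, chr13:51846425-51846724, plus strand: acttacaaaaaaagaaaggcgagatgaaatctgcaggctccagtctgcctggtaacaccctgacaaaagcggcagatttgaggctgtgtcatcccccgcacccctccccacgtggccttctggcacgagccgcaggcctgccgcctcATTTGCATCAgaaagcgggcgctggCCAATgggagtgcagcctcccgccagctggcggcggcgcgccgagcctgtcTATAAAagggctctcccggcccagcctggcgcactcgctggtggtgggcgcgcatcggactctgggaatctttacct
The Nupr1 window held a C/EBP and ATF element, which began 110 bases before the start site and which 3.97% of 32851 such windows hold, and no CCAAT box. The Gadd45a window held 2 octamers, 97 and 70 bases before the start, with a CCAAT box between them. The Gadd45g window held 1 octamer, 103 bases before the start, and a C/EBP and ATF element that overlapped it. Octamers stood in 1.74% of all windows and CCAAT boxes in 37.4%. The Gadd45b window held 2 CCAAT boxes and a TATA box, which 13.6% of windows hold; Gadd45g had a TATA box too. The p53 half-site, searched by its consensus and not in capitals, stood 40 bases before the start of Gadd45a, in none of the windows of the other 3 genes shown, and in 8.36% of all windows. Of 12 windows of the listed genes 5 held it, those of Gadd45a, Ccng1, Mdm2, Sesn1 and Trp53. These matches describe letters, and no binding was measured.

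The values are the deposited array signals on a linear scale, and changes are differences of log2(signal + 1.77) after quantile normalization, with the SE of the limma fit and 2 arrays per group throughout. Median signals ran between 22.3 and 27.8 over the 8 arrays, and replicates correlated at 0.980 to 0.984. FGF2 replicate 2 stood apart in its spiked-in control RNAs (14459 against 11234 to 11852 for 1 cre probe set). All 9 astrocyte markers looked at passed the filter, and their summed signal was 9977 to 10448 with FGF2 and SB202190, 14237 to 14359 with FGF2 and U0126, 10925 to 11101 with FGF2 and 21058 to 21402 with vehicle. All 6 fibroblast and pericyte markers passed, with sums of 3308 to 3736, 3464 to 3539, 3767 to 4080 and 6870 to 6882 for the groups in the same order, and so did all 5 ependymal markers, with sums of 2885 to 3572, 2904 to 4127, 2703 to 3544 and 4532 to 4759. Of 7 neuron markers 4 passed, with sums of 2192 to 2208, 1453 to 1506, 1889 to 1973 and 1682 to 1707, while Rbfox3, Snap25 and Slc17a7 stayed below the filter. Of 3 markers of oligodendrocyte precursors 2 passed, with sums of 129 to 151, 77.6 to 97.8, 146 to 162 and 149 to 156. Sums were at most 152 for microglia (2 of 7 passed), 61.3 for oligodendrocytes (1 of 4, without Mog, Mag and Mobp) and 118 for endothelium (2 of 5, without Pecam1, Cldn5 and Tek). In such bulk RNA fewer cells of a type and less RNA per cell cannot be told apart, and the part of these markers in the results below was not tested.

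On the normalized scale Nupr1 was 3.61 times as high with FGF2 as with vehicle, and most of that excess was absent when SB202190 was present. Its signal was 849.8 and 717 with FGF2 and SB202190, 2006 and 1762 with FGF2 and U0126, 2365 and 2187 with FGF2, and 608 and 593 with vehicle. The groups did not overlap on any array, and the arrays with SB202190 lay far closer to vehicle than to FGF2. Against vehicle, FGF2 raised Nupr1 by a log2 change of 1.85 ± 0.09 (limma, Benjamini-Hochberg adjusted p = 5.7e-09), and 93 of the 13173 genes changed more upward. The FGF2 arrays in that test also entered the choice of the gene. With FGF2 and U0126, whose arrays and the vehicle arrays the choice did not use, Nupr1 stood 1.63 ± 0.09 above vehicle (limma adjusted p = 1.85e-08).

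Between FGF2 with SB202190 and FGF2 alone, Nupr1 differed by a log2 value of -1.51 ± 0.09, a fold of 0.352, and 19 genes differed more downward. Against vehicle the difference with SB202190 was 0.34 ± 0.09, and 0.22 without SB202190 replicate 1. For U0126 against FGF2 the change was -0.22 ± 0.09, with a 95% interval of -0.41 to -0.03, and did not pass (limma adjusted p = 0.0886). The FGF2 arrays in this comparison also entered the choice of the gene, which holds for each fit that follows. The change passed without normalization between arrays (limma adjusted p = 0.0353) and in a fit of only the arrays of the comparison (limma adjusted p = 0.0487). With the replicate number as a block it passed too (limma adjusted p = 0.0302). With 1 array left out the change lay between -0.32 (without U0126 replicate 1) and -0.13 (without U0126 replicate 2). The other Nupr1 probe set, 1419666_x_at, gave 2.09 ± 0.11 for FGF2 against vehicle, -0.39 ± 0.11 for U0126 against FGF2, which passed in the fit over all probe sets (limma adjusted p = 0.0345), and -1.65 ± 0.11 for SB202190 against FGF2.

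Gadd45a had its highest signals with SB202190. It measured 1334 and 1387 with FGF2 and SB202190, 874 and 781 with FGF2 and U0126, 713 and 679 with FGF2, and 513 and 524 with vehicle. Each group lay above the next in that order, with no overlap between arrays. FGF2 raised Gadd45a by 0.39 ± 0.07 against vehicle (limma adjusted p = 0.000922), in a test whose FGF2 arrays also entered the choice of the gene. FGF2 with U0126 lay 0.64 ± 0.07 above vehicle (limma adjusted p = 2.25e-05). Gadd45a and Nupr1, both raised by FGF2, thus differed in sign with SB202190: the difference from FGF2 was 0.97 ± 0.07 for Gadd45a, a fold of 1.96, and 113 genes differed more upward. With U0126 Gadd45a rose by 0.25 ± 0.07 against FGF2 (limma adjusted p = 0.0278). The FGF2 arrays of this test, too, entered the choice of the gene. The call was lost without FGF2 replicate 1, FGF2 replicate 2 or U0126 replicate 1, where the change was 0.16 to 0.28.

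Gadd45g and Gadd45b fell with FGF2 and were near their FGF2 levels with either inhibitor. Gadd45g measured 262 and 235 with FGF2 and SB202190, 279 and 334 with FGF2 and U0126, 249 and 293 with FGF2, and 730.2 and 729 with vehicle. All 6 arrays with FGF2 lay below both vehicle arrays, and the 3 FGF2 groups overlapped with one another except SB202190 with U0126. FGF2 lowered Gadd45g by -1.46 ± 0.11 (limma adjusted p = 3.51e-07), and U0126 against FGF2 gave 0.16 ± 0.11 with an interval of -0.08 to 0.40 (limma adjusted p = 0.351). FGF2 with U0126 differed from vehicle by -1.30 ± 0.11 (limma adjusted p = 1.41e-06) and FGF2 with SB202190 by -1.58 ± 0.11 (limma adjusted p = 1.4e-07).

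Gadd45b was 129 and 131 with FGF2 and SB202190, 167 and 134 with FGF2 and U0126, 146 and 133 with FGF2, and 232 and 288 with vehicle. Here too the arrays with FGF2 all lay below the vehicle arrays. The change with FGF2 was -0.87 ± 0.14 (limma adjusted p = 0.000339, and 0.000659 in the fit over all probe sets). In the fit over all probe sets a further probe set, 1449773_s_at, gave -0.75 ± 0.13 (limma adjusted p = 0.00101). The third, 1420197_at, was faint at 10.2 to 30.4 and did not pass, at -0.36 ± 0.46 (limma adjusted p = 0.616). U0126 against FGF2 gave 0.08 ± 0.14, interval -0.23 to 0.40 (limma adjusted p = 0.733), and SB202190 differed from FGF2 by -0.10 ± 0.14. So within this family FGF2 raised Gadd45a and lowered Gadd45b and Gadd45g.

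**Figure D1:**
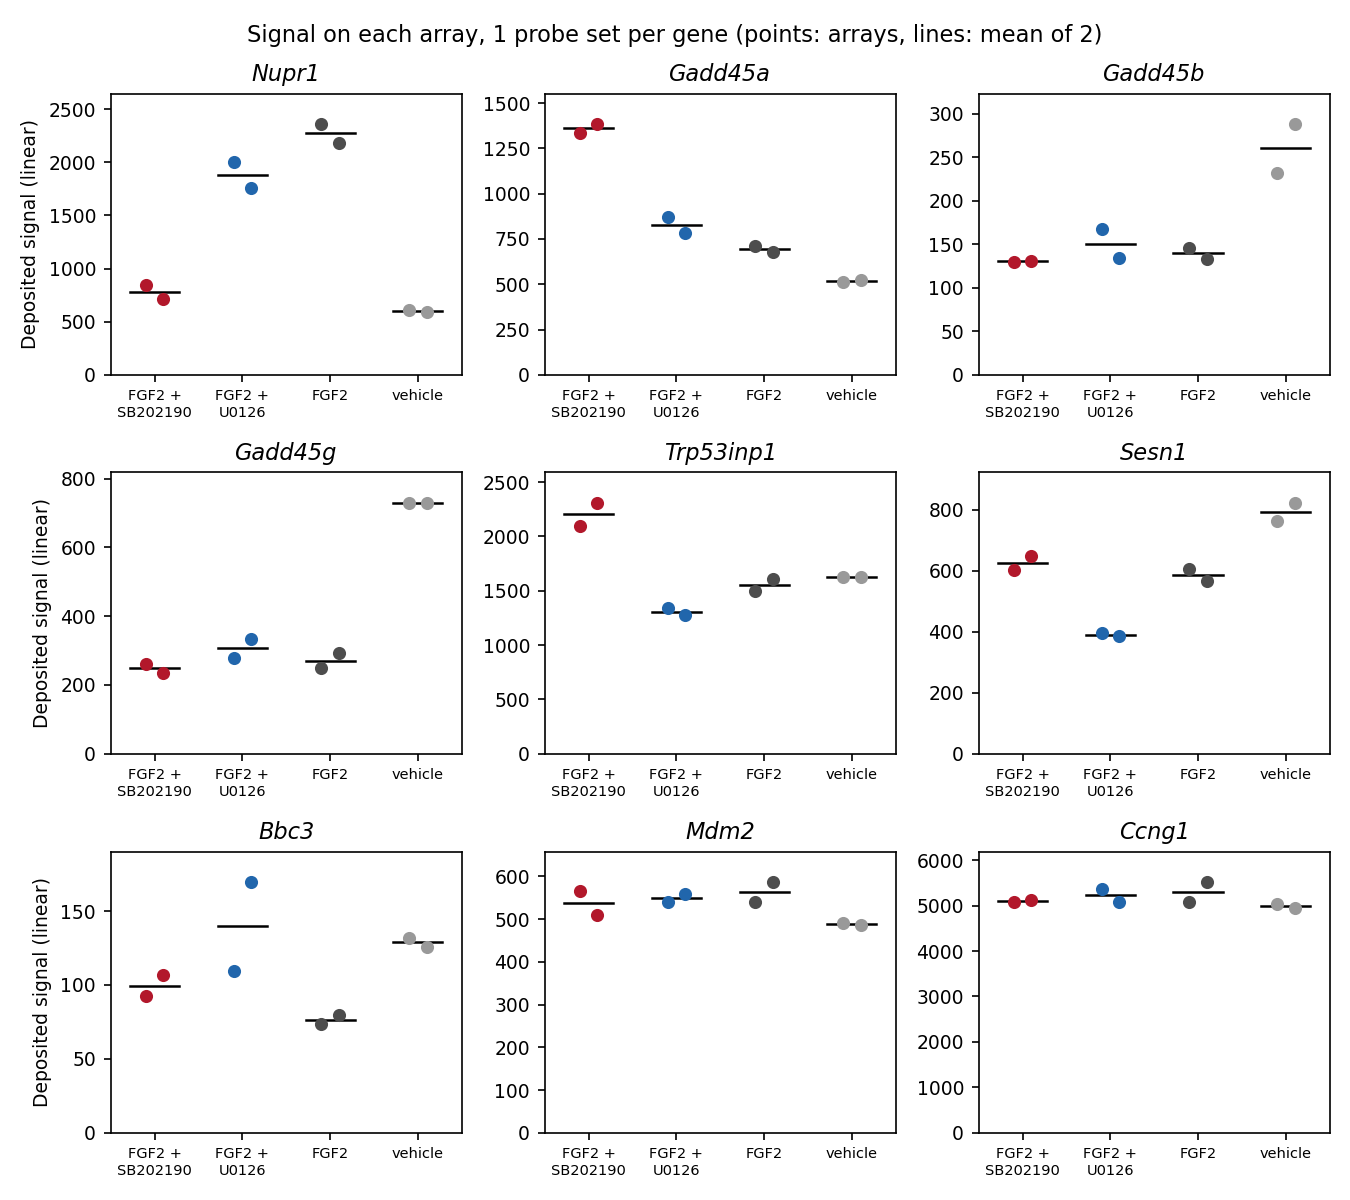
Deposited signal (linear, vertical axis from 0, its range set per gene) of the 9 genes in FGF2 with SB202190, FGF2 with U0126, FGF2 and vehicle. Points are arrays and lines the mean of 2. Nupr1 is high with FGF2 and with U0126, Gadd45a is highest with SB202190, Gadd45b and Gadd45g are highest with vehicle, and Sesn1 is lowest with U0126.

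Trp53inp1 encodes a nuclear protein induced by p53 that takes part in autophagy and cell death. Its brighter probe set, 1416926_at, gave 2096 and 2311 with FGF2 and SB202190, 1337 and 1279 with FGF2 and U0126, 1501 and 1606 with FGF2, and 1631 and 1624 with vehicle. The arrays with SB202190 lay above all others and those with U0126 below all others. FGF2 against vehicle did not pass, at -0.10 ± 0.07 (limma adjusted p = 0.247). U0126 lowered it by -0.24 ± 0.07 against FGF2 (limma adjusted p = 0.0184); the call was lost without FGF2 replicate 2 or U0126 replicate 2 (-0.20 and -0.19), with median centring, without the intensity trend and with the mean of its probe sets (-0.18). SB202190 differed from FGF2 by 0.49 ± 0.07. From U0126 it differed by 0.74 ± 0.07 (limma adjusted p = 4.85e-06), in a comparison that shares the SB202190 arrays and so is not independent. The dimmer probe set, 1416927_at, differed from the brighter: SB202190 lay 0.06 ± 0.14 from FGF2, 0.17 from U0126 (limma adjusted p = 0.475) and -0.25 from vehicle (limma adjusted p = 0.223). U0126 against FGF2 gave -0.12 ± 0.14 on it (limma adjusted p = 0.645), and the arrays of those groups overlapped.

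Sesn1, a sestrin that acts on the nutrient-sensing kinase complex mTORC1, was lowest with U0126. The probe set 1433711_s_at gave 604 and 648 with FGF2 and SB202190, 395 and 385 with FGF2 and U0126, 605 and 567 with FGF2, and 764 and 824 with vehicle. Both U0126 arrays lay below all others and both vehicle arrays above all others. U0126 lowered Sesn1 by -0.59 ± 0.08 against FGF2 (limma adjusted p = 0.00013), and the change kept its call under all 22 alternatives, between -0.75 and -0.51. The other 2 probe sets above the filter gave -0.61 ± 0.12 and -0.75 ± 0.09 in the fit over all probe sets (limma adjusted p = 0.00401 and 0.000114, with 0.000293 for the first). SB202190 against U0126 gave 0.68 ± 0.08 (limma adjusted p = 3.69e-05), and 1.33 and 1.06 on the other probe sets.

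The fall of Sesn1 with FGF2 against vehicle was less even over probe sets. It was -0.47 ± 0.08 on the first (limma adjusted p = 0.000304 in the fit over genes, 0.000575 in the fit over all probe sets). In the fit over all probe sets it was -0.78 ± 0.12 on 1438931_s_at (limma adjusted p = 0.000279). There 1454699_at gave -0.17 ± 0.09 and did not pass (limma adjusted p = 0.181). The call was lost with median centring (-0.24) and with the mean of the probe sets (-0.20). Against FGF2, SB202190 differed by 0.09 ± 0.08, 0.73 ± 0.12 and 0.31 ± 0.09 on the 3 probe sets.

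**Figure D2:**
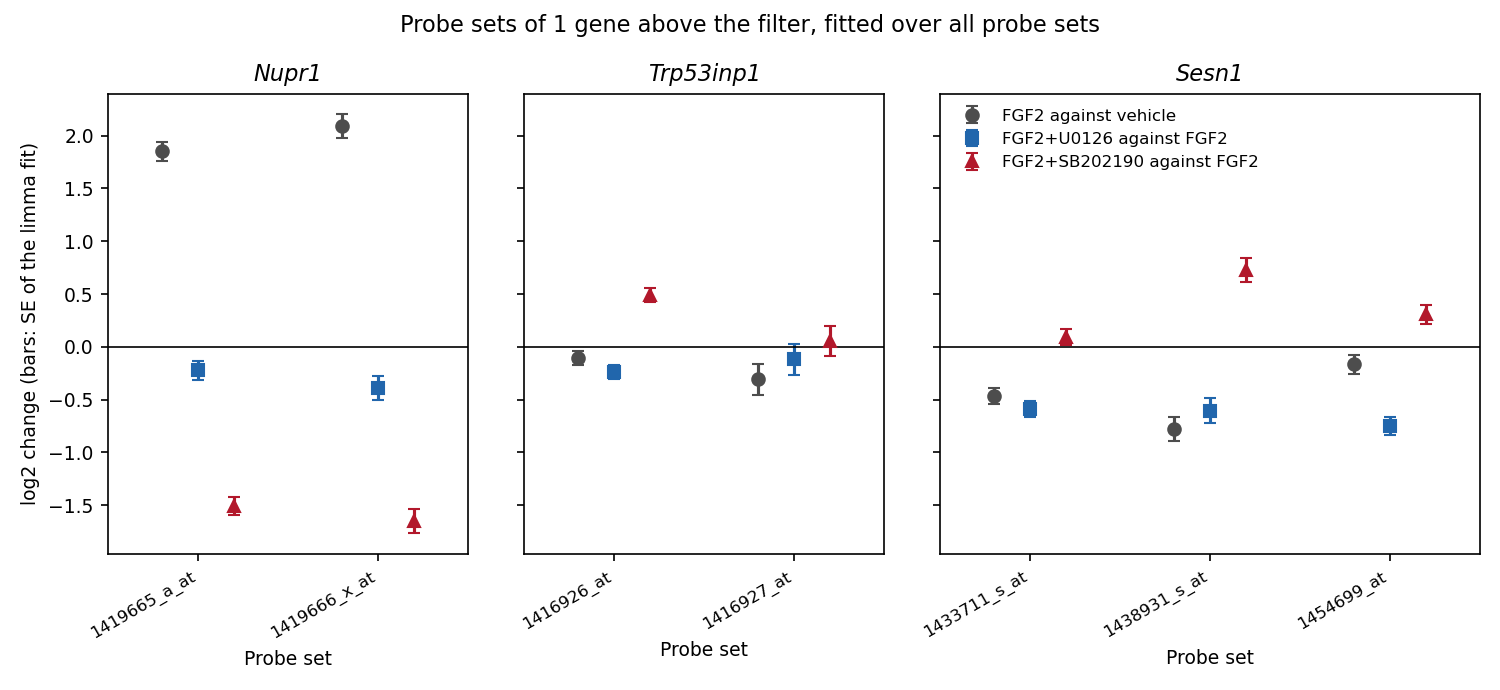
Log2 change (vertical axis, bars: SE of limma's fit over all probe sets) of each probe set above the filter of Nupr1, Trp53inp1 and Sesn1, for FGF2 against vehicle (circles), U0126 against FGF2 (squares) and SB202190 against FGF2 (triangles). The Nupr1 probe sets follow each other, the Trp53inp1 probe sets differ with SB202190 (0.49 and 0.06), and the 3 Sesn1 probe sets lie together for U0126 and apart for SB202190.

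Bbc3, which encodes the cell death protein PUMA, was dim. It measured 92.5 and 107 with FGF2 and SB202190, 109.7 and 169.9 with FGF2 and U0126, 73.3 and 79.7 with FGF2, and 132 and 125.8 with vehicle. The U0126 arrays spanned a wide range that held both vehicle arrays, while the FGF2 arrays were the lowest. FGF2 lowered Bbc3 by -0.69 ± 0.19 (limma adjusted p = 0.0102) and U0126 raised it against FGF2 by 0.80 ± 0.19 (limma adjusted p = 0.00841). Both calls were lost without FGF2 replicate 1 (limma adjusted p = 0.066 and 0.0618) and without the intensity trend, that of FGF2 also without vehicle replicate 1 (limma adjusted p = 0.0529), and that of U0126 also without U0126 replicate 2, where the change was 0.48 (limma adjusted p = 0.108).

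Mdm2, the ubiquitin ligase that marks p53 for degradation, and Ccng1, cyclin G1, showed only small differences between groups. Mdm2 was 566 and 510.5 with FGF2 and SB202190, 539.5 and 559 with FGF2 and U0126, 539.7 and 588 with FGF2, and 490.0 and 487 with vehicle. On this probe set every array with FGF2 lay above both vehicle arrays, by a small margin; on the other above the filter, 1423605_a_at, the groups overlapped and FGF2 against vehicle gave 0.08 ± 0.13 (limma adjusted p = 0.701). The change with FGF2 was 0.19 ± 0.08, interval 0.01 to 0.36, and did not pass (limma adjusted p = 0.0897), whereas with median centring it was 0.40 (limma adjusted p = 0.00383).

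Ccng1 was the brightest of the 9 genes, with signals between 4940.0 and 5528 on the 8 arrays. Its change with FGF2 was -0.14 ± 0.05 (limma adjusted p = 0.0366), but 0.09 without normalization and 0.29 with median centring, so that no direction can be given. U0126 against FGF2 gave 0.07 ± 0.05, interval -0.04 to 0.17 (limma adjusted p = 0.366), and SB202190 differed from FGF2 by 0.01 ± 0.05. The probe sets 1450016_at and 1450017_at were not called with FGF2 (-0.10 and -0.006) and gave -0.10 each for SB202190 against FGF2. With SB202190, 1450016_at was lower than with vehicle (-0.20, limma adjusted p = 0.0147) and than with U0126 (-0.18, limma adjusted p = 0.0407), and 1450017_at was not called.

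Over the 9 genes, FGF2 against vehicle called 7, with 2 higher (Nupr1, Gadd45a) and 5 lower (Gadd45b, Gadd45g, Sesn1, Bbc3 and, with the turns of sign just given, Ccng1), while 37.9% of all genes tested were called, 18.9% higher and 19.0% lower. Nupr1 and Gadd45a, the 2 called higher, were chosen on a comparison that used the FGF2 arrays. Of the other genes 5 were called, all lower. The median change was -0.14 for the 9 genes and -0.004 over all genes tested. With median centring the split was 4 higher and 3 lower, and over all genes tested it was 4018 higher and 1479 lower, against 2491 and 2504 with quantile normalization, as median centring shifts the median of all genes to 0.16. U0126 against FGF2 called 4, with 2 higher (Gadd45a, Bbc3) and 2 lower (Trp53inp1, Sesn1), where 22.2% of all genes were called, 11.7% higher and 10.5% lower. Gadd45a in that count was chosen on a comparison that used the same FGF2 arrays. Without the intensity trend 1 was called (Sesn1), where 12.3% of all genes were. The count also fell with an FGF2 or U0126 array left out, where fewer of all genes were called too. The 3' to 5' ratio of Actb, a sign of RNA integrity, was 1.28 and 1.26 on the U0126 arrays, against 1.35 and 1.38 on the FGF2 arrays. That of Gapdh was 0.745 and 0.758 on the U0126 arrays, against 0.777 and 0.758 on the FGF2 arrays. The part of these ratios in the changes was not tested.

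SB202190 against FGF2 passed the same threshold for 3 of the 9 genes (Gadd45a, Trp53inp1, Nupr1) (2 higher, 1 lower) and for 3.07% of all genes (1.34% higher, 1.73% lower); the genes were chosen on this comparison, so nothing follows from that count. FGF2 with U0126 against vehicle called 6 of the 9 genes (2 higher, 4 lower) and 31.7% of all genes (16.7% higher, 15.1% lower). FGF2 with SB202190 against vehicle called 6 (3 higher, 3 lower) and 35.9% (18.1% higher, 17.9% lower), with Gadd45b at -0.96 ± 0.14 (limma adjusted p = 0.000147) and Trp53inp1 at 0.39 ± 0.07 (limma adjusted p = 0.000374); with the mean of its probe sets Trp53inp1 gave 0.07 and was not called. SB202190 against U0126 put 4 past the threshold (3 higher, 1 lower) and 22.7% of all genes (10.3% higher, 12.4% lower). Both counts with SB202190 include Nupr1 and Gadd45a, which were chosen on the SB202190 arrays. Of the other 7 genes 4 were called against vehicle (Gadd45b, Gadd45g, Trp53inp1, Sesn1) and 2 against U0126 (Trp53inp1, Sesn1). Against vehicle Sesn1 was called on 1433711_s_at only, at -0.38 ± 0.08. The probe sets 1438931_s_at and 1454699_at gave -0.05 and 0.14 (limma adjusted p = 0.803 and 0.265). Gadd45g did not pass against U0126, at -0.29 ± 0.11, interval -0.52 to -0.05 (limma adjusted p = 0.0832), and passed there, as did Bbc3, without U0126 replicate 1 (-0.41 and -0.74). The comparisons share arrays and are not independent of one another.

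**Figure D3:**
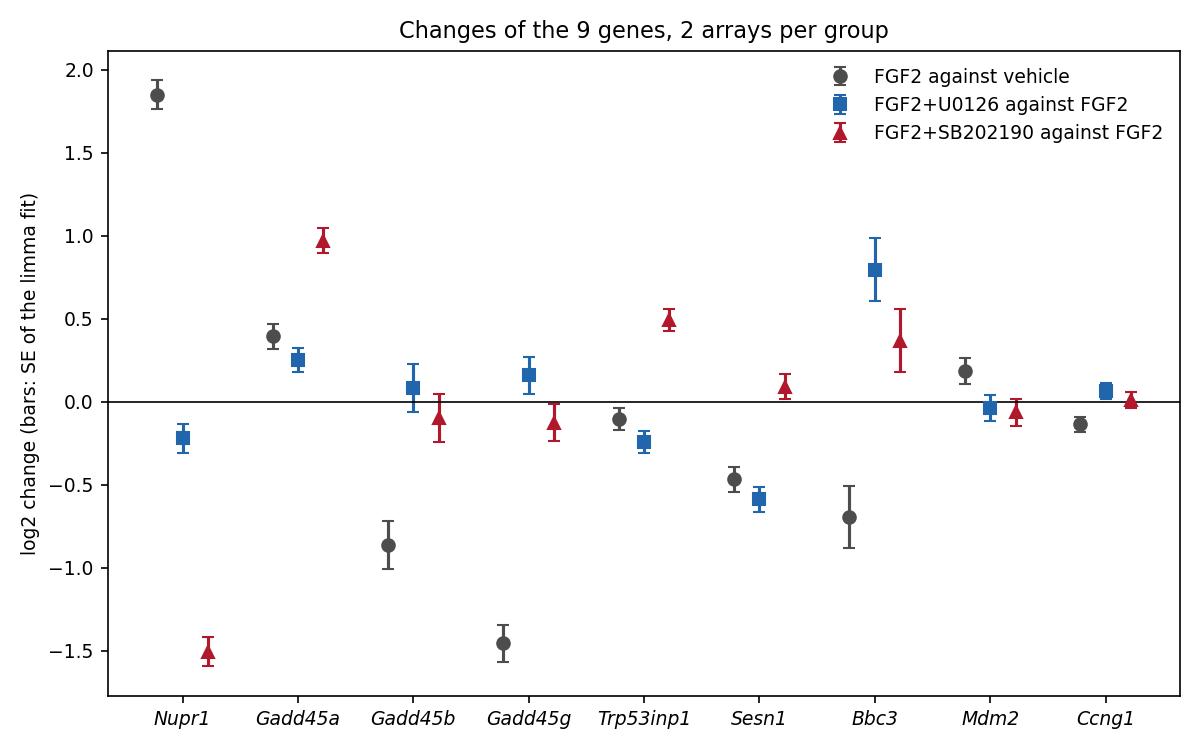
Log2 change (vertical axis, bars: SE of the limma fit, 2 arrays per group) of the 9 genes for FGF2 against vehicle (circles), U0126 against FGF2 (squares) and SB202190 against FGF2 (triangles). Nupr1 lies at 1.85 with FGF2 and at -1.51 with SB202190, Gadd45a is above 0 in all 3, and Gadd45b and Gadd45g are below 0 with FGF2 and within 0.16 of 0 with the inhibitors.

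Other p53 targets moved in both directions with FGF2: of 28 tested of 32 listed, 4 rose and 6 fell, with a median of -0.09, where 18.9% of all genes rose and 19.0% fell with a median of -0.004. The list thus lay close to all genes. Its count of 10 called fell without vehicle replicate 1 or FGF2 replicate 2, where fewer of all genes were called too. Fas, a death receptor, was 325 ± 11.7 with FGF2 and 936 ± 28.7 with vehicle (SD, n = 2 arrays), a log2 change of -1.54 ± 0.09 (limma adjusted p = 3.09e-08). Ccng2, cyclin G2, changed by -0.77, Btg2, an antiproliferative gene, by -0.49 and Rrm2b, a subunit of ribonucleotide reductase, by -0.50. The calls of Btg2 and Rrm2b were lost with median centring, and that of Rrm2b also with the mean of its probe sets (-0.27). Cdkn1a, the cell cycle inhibitor p21, named here after its values were seen, was 2249 ± 3.32 with FGF2 and 2491 ± 71.2 with vehicle; its change of -0.22 (limma adjusted p = 0.00838) was 0.05 with median centring and lost its call without vehicle replicate 1 or FGF2 replicate 2. With U0126 against FGF2, 5 of the 28 rose and 2 fell, where 11.7% of all genes rose and 10.5% fell. The median was 0.04, against 0.03 over all genes. The count of 7 fell without FGF2 replicate 2 or U0126 replicate 1, where fewer of all genes were called too. Rrm2b gave 0.65 ± 0.10 (limma adjusted p = 0.000589), Perp, a membrane protein of cell death, 0.53 ± 0.11 and Zmat3, an RNA-binding protein, 0.30 ± 0.07. With the mean of its probe sets Rrm2b gave 0.51 and was not called (limma adjusted p = 0.056). Aen, a nuclease, rose by 0.32 but gave -0.17 when its probe sets were averaged. Zmat3 and Aen lost their calls without FGF2 replicate 2 or U0126 replicate 1.

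Of 21 p53 regulators tested of 23 listed, 3 rose and 3 fell with FGF2, where 37.9% of all genes were called, and 1 rose and 3 fell with U0126 against FGF2, where 22.2% were. The count of 6 fell without FGF2 replicate 1, and that of 4 with any FGF2 or U0126 array left out. Fewer of all genes were called in each of these fits too. Chek1, a checkpoint kinase, changed by 0.73 with FGF2 and Rpl11, a ribosomal protein that binds Mdm2, by 0.17. The acetyltransferase gene Kat5 changed by -0.44 and the deacetylase gene Sirt1 by -0.63. Sirt1 and Rpl11 lost their calls without FGF2 replicate 1 or vehicle replicate 1, and Kat5 with median centring. Chek1 lost its call with the mean of its probe sets, at 0.55 (limma adjusted p = 0.254). With U0126 against FGF2, Chek2 rose by 0.73, while Ppm1d, a phosphatase that acts on p53 and p38, changed by -0.53, Rchy1, a ubiquitin ligase, by -0.26 and Ppp1r13b, a p53-binding protein, by -0.41; each of these 4 calls was lost in at least 1 fit with an array left out.

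Among the 16 genes tested of 17 listed around Gadd45 and p38, 9 rose and none fell with FGF2, with a median of 0.49, where 18.9% of all genes rose and 19.0% fell with a median of -0.004. Those with the smallest p were Pcna and Cdk1, the binding partners of Gadd45 proteins, at 0.54 and 0.99, and the kinase genes Mapkapk3 and Map2k3 at 1.04 ± 0.11 and 0.83 ± 0.11 (limma adjusted p = 5.97e-06 and 4.36e-05). Pcna measured 4459 ± 101 with FGF2 and 2805 ± 140 with vehicle (SD, n = 2 arrays). U0126 against FGF2 raised 1, Gadd45gip1 (0.45 ± 0.10), a gene named for binding Gadd45g, and lowered 5, among them Pcna (-0.28), Cdk1 (-0.54) and Map3k5 (-1.40 ± 0.31), the kinase ASK1, where 11.7% of all genes rose and 10.5% fell. The count of 6 fell without FGF2 replicate 1 or FGF2 replicate 2, where fewer of all genes were called too. Map3k5 lost its call without FGF2 replicate 2 and Gadd45gip1 without FGF2 replicate 1. With the mean of their probe sets neither Map3k5 nor Gadd45gip1 was called, at -0.75 and 0.41 (limma adjusted p = 0.103 and 0.157). Mapk14, which encodes p38 alpha, and Map3k4, both named here after their values were seen, did not pass with FGF2, at 0.12 ± 0.11 (limma adjusted p = 0.43) and 0.14 ± 0.15 (limma adjusted p = 0.507), though Mapk14 passed with median centring, at 0.31.

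Of 14 genes tested of 16 listed around ATF4 and Nupr1, 4 rose and 3 fell with FGF2, with a median of -0.03, where 18.9% of all genes rose and 19.0% fell with a median of -0.004. Asns, asparagine synthetase, measured 1935 ± 115 with FGF2 and 379 ± 26.1 with vehicle (SD, n = 2 arrays), a log2 change of 2.32. The transcription factor gene Atf5 rose by 1.28 ± 0.07 and the chaperone gene Hspa5 by 0.41, while Atf3, a transcription factor of the early stress response, fell to 23.3 ± 15.1 with FGF2, against 164 ± 13.9 with vehicle. With U0126 against FGF2, 9 of the 14 rose and 2 fell, with a median of 0.54, where 11.7% of all genes rose and 10.5% fell with a median of 0.03. Atf5 rose by 0.73 and Cebpb, a transcription factor gene, by 0.65, and Hspa5 changed by -0.60. Ddit3, which encodes CHOP, rose by 1.30 ± 0.11 (limma adjusted p = 2.32e-06), to 641 ± 59.1 with U0126 against 256 ± 29.6 with FGF2, but gave -0.64 with the mean of its probe sets. Nupr1 changed by -0.22 ± 0.09 in this comparison and did not pass. Its probe set 1419666_x_at gave -0.39 ± 0.11 and passed in the fit over all probe sets (limma adjusted p = 0.0345). For SB202190 against FGF2, where none of these values is a test, the medians of the 4 lists lay between -0.04 and 0.06.

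By Pearson correlation of log2 values over the 8 arrays, among 13172 other genes, the genes most like Nupr1 were Rhbdf1 (0.985), Ndufa10 (0.974) and Tmem39a (0.970). Rhbdf1 had a far smaller range, at 489.6 ± 14.9 with FGF2 and SB202190, 603 ± 11.5 with FGF2 and U0126, 621 ± 9.03 with FGF2 and 462 ± 18.6 with vehicle. Those most like Gadd45a were Rgp1 (0.996), Fam171b (0.982) and Ermard (0.976). Rgp1 measured 215 ± 7.19, 182 ± 9.17, 169.8 ± 0.267 and 157 ± 0.749 in the same order of groups. With 4 groups of 2 arrays, such likeness follows the group means, and the best of so many genes correlates closely by selection.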

How the data were processed

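The deposited table gave linear intensity for 45101 probe sets on 8 arrays; the authors' algorithm and its settings are not given in the sources used here. After trimming 2% at each end every array had a mean of 150.001, so the arrays had been scaled. Probe sets with 1 symbol in the annotation (34958; 932 had several and 9211 none) named genes.

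Values were turned into log2(value + 1.77), the pseudocount being the 10th percentile of all values, which understates changes of low genes, and quantile normalized. Each gene kept its probe set of highest mean, and genes under the 40th percentile (log2 3.83) were dropped, as was 1 gene with the same value on all arrays. limma 3.58.1 (R 4.3.3) fitted the 13173 genes on all 8 arrays, with an intensity trend and 9.2 prior beside 4 residual degrees of freedom. P-values are two-sided, adjusted within each of 6 comparisons, and called under 0.05; they reflect only the spread between the samples of a group, and nothing says that these came from separate cultures or animals, so it may be technical. Only 2 arrays per group limit the precision. All 27061 probe sets above the filter were also fitted, without choosing 1 per gene. The values of a gene's further probe sets come from that fit. The scripts were tested on simulated data.

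The genes, the lists, the markers and the tests were chosen with earlier results of these data known. From each list up to 4 genes with the smallest p in FGF2 against vehicle and in U0126 against FGF2 were named, and for Nupr1 and Gadd45a the 3 genes of highest correlation. Of the listed names, 32, 23, 17 and 16 in the 4 lists, those with no probe set or below the filter were left out. Alternatives were other pseudocounts, filters, normalizations, probe set rules, variance priors, array weights, a replicate block, fits of fewer arrays and each array left out.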

Additional observations from a re-analysis of the deposited data

How the results depend on the processing

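Of 1170 log2 changes of the 9 genes recomputed under 22 alternatives in the 6 comparisons, 1114 kept direction and side of the threshold, 34 lost the call, 16 gained it and 6 reversed. The count of genes called for FGF2 against vehicle was 3 without x, s and a probe sets. There 6 of the 9 genes were left to test, and 35.4% of all genes were called. The count was 5 without the intensity trend and 5 with the mean of probe sets, where 30.8% and 28.2% of all genes were called. Without normalization and without the filter it was 6, where 37.9% and 25.6% were. Without vehicle replicate 1, FGF2 replicate 1 or FGF2 replicate 2 it fell as well, where fewer of all genes were called too. For U0126 against FGF2 the count was 1 without the intensity trend, where 12.3% of all genes were called. It also fell with an FGF2 or U0126 array left out, where fewer of all genes were called too. For SB202190 against FGF2 limma without the intensity trend called 0 of the 9 genes and 0 of 13173 genes, while 3 and 1818 had an unadjusted p under 0.05; the cause was not tested. Reversed values were those of Ccng1 for FGF2 against vehicle without normalization (0.090) and with median centring (0.29), for U0126 against vehicle (0.28) and for SB202190 against vehicle (0.24), both with median centring, and of Sesn1 for SB202190 against vehicle with the mean of probe sets (0.076) and without x, s and a probe sets (0.14). Median centring shifted the median of all genes to 0.16, 0.19 and 0.18 in the comparisons of FGF2, U0126 and SB202190 with vehicle. For U0126 against FGF2, 20% of all genes were called with it, 14.3% with the mean of probe sets and 19.6% without x, s and a probe sets. For FGF2 against vehicle, 30.8% were called without the intensity trend. Among the 30 listed genes named or singled out, Cdkn1a reversed for FGF2 against vehicle with median centring (0.052), and Aen (-0.17) and Ddit3 (-0.64) for U0126 against FGF2 with the mean of probe sets; of their 787 values 732 kept the call or its absence, 51 lost it and 1 gained it, in alternatives chosen after seeing the data. Besides the losses with an array left out, the counts of list genes called changed by over 1.5 times without the intensity trend (p53 targets 6 of 10 for FGF2, and for U0126 against FGF2 2 of 7, p53 regulators 1 of 4, p38 genes 2 of 6 and ATF4 genes 7 of 11), with the mean of probe sets (4 of 7, 2 of 4 and 3 of 6 for U0126), with median centring (p53 regulators 2 of 4 for U0126) and without x, s and a probe sets (ATF4 genes 4 of 7 for FGF2 and 7 of 11 for U0126, p53 regulators 2 of 4 for U0126).

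Replicate numbers are shared between groups in the labels, but the differences between replicates 1 and 2 correlated between groups at only -0.03 to 0.03. That shows no broad effect of the number over all genes. It cannot tell whether samples of the same number came from 1 culture or preparation. Nupr1 was higher on replicate 1 than on replicate 2 in all 4 groups. With the number as a block, 7 of the 9 genes were called for FGF2 against vehicle, 5 for U0126 against FGF2 and 3 for SB202190 against FGF2. Of all genes tested, 37.7%, 22.1% and 3.14% were called there. The last comparison served to choose the genes, so nothing follows from its count. The counts before it include Nupr1 and Gadd45a, which were chosen with the FGF2 arrays. For U0126 against vehicle, SB202190 against vehicle and SB202190 against U0126 the counts were 6, 6 and 4. Of all genes, 31.6%, 35.7% and 22.8% were called in these. The gene gained was Nupr1 for U0126 against FGF2 (limma adjusted p = 0.0302), a comparison whose FGF2 arrays also entered its choice.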
